A study of Mus musculus with 5 samples.

Results

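Expression of 10 genes that govern the growth and renewal of the hair follicle was examined in RNA-seq libraries of sorted dermal group 2 innate lymphoid cells (dILC2s): the ligands *Shh* and *Wnt10b*, the receptors *Lgr5*, *Lgr6* and *Prlr*, and the transcription factors *Sox9*, *Lhx2*, *Msx2*, *Hoxc13* and *Foxn1*. The genes were selected by symbol, and all 10 were found among the 47729 genes of the count table. They were chosen with earlier results of these data known, so that their shares beside those of all genes are a description. WT libraries came from C57BL/6 mice and were 3 pools (5, 6 and 13) of cells from 10 mice each. *Rag1*-/- libraries were 2 pools (2 and 7) from mice on the same background that lack mature T and B cells, with 9 mice in each pool by the study's methods and 16 mice in the group by the labels. All mice were female and 8 to 13 weeks old, and the cells were sequenced after sorting without further stimulation. In its flow cytometry the study defined dILC2s as viable CD45+ CD90hi cells of ear skin without CD2 or CD3 signal, and the gate of the sort for RNA-seq is not given in the sources used here. The labels name the cell type of the *Rag1*-/- libraries as type 3 innate lymphoid cells, whereas the study describes both groups as dILC2s. Each library is thus a mixture of the cells of several animals, and differences between animals within a pool are not visible.

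The hair follicle is an epidermal appendage that cycles through growth, regression and rest. Its stem cells sit in the bulge and depend on factors such as SOX9 and LHX2, and the growing bulb needs Wnt and hedgehog signals exchanged with the dermal papilla. LGR5 and LGR6 are receptors of R-spondins, which strengthen Wnt signals, and mark stem cells of the follicle and of its upper part and the neighbouring epidermis. HOXC13, FOXN1 and MSX2 act in the differentiating hair, and prolactin acting on its receptor PRLR can retard hair growth. These genes are known from epithelial cells of the skin and are not markers of innate lymphoid cells.

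The libraries held between 32939428 and 39477243 counts in WT, and 8050562 (pool 2) and 38922750 counts (pool 7) in *Rag1*-/-. The targeted gene went against its label: *Rag1* counts were 4, 0 and 5 in WT, and 5 and 48 in the *Rag1*-/- libraries (log2 fold change 3.53, SE 1.03, adjusted p = 0.0865, edgeR), so that the second group is referred to by its label only. Counts per gene do not show whether these reads lie outside the deleted part. Genes of other cells were abundant in these sorted samples. The 26 genes of an interfollicular keratinocyte list (the epidermis between follicles) summed to 33400 to 49800 CPM (counts relative to the library total) in WT and to 8620 and 19900 CPM in the libraries labelled *Rag1*-/-, and none of the 26 was at 0. The 20 ILC2 genes summed to 1860 to 3850 CPM and to 9870 and 7320 CPM, and 35 leukocyte genes to 1370 to 3350 CPM and to 10400 and 9190 CPM. In bulk samples, fewer cells of a type and less RNA per cell cannot be told apart.

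Genotypes were compared with edgeR's quasi-likelihood test across 19011 genes that passed a filter on low counts, and a gene was called at an adjusted p below 0.05 with an absolute log2 fold change above 1. Of the 10 regulators 9 were tested, and *Shh* was removed by the filter. *Prlr*, *Lgr6* and *Sox9* were called lower in the libraries labelled *Rag1*-/- with TMM scaling, by 3.48-fold, 2.8-fold and 2.34-fold, and none was called higher. These 3 genes were 33.3% of the regulators tested, where 2.16% of all genes were called lower, 3.58% were called higher and 5.74% were called in either direction. All 9 had a negative log2 fold change, which 48.6% of all genes had, with a median of -1.14 against 0.02 over all genes tested. In 8 of the 9 (88.9%) both libraries labelled *Rag1*-/- lay below every WT library (all but *Wnt10b*), as in 24% of all genes. Groups that did not overlap were seen in 45.9% of all genes, with 21.9% of all genes higher in both libraries labelled *Rag1*-/-. DESeq2 called 5 of the regulators lower, *Lgr5* and *Foxn1* in addition, where it called 7.65% of all genes lower and 14.9% in either direction. The directions depended on the scaling: with the libraries scaled on the keratinocyte genes, 7 of the 9 values were positive and only *Wnt10b* was called, as higher. The calls also depended on single libraries of both groups, and without WT pool 5, 6 or 13 edgeR called no gene. In those fits 4, 4 and 6 of the 9 regulators had an unadjusted p under 0.05 (edgeR). So had 3521 of 18386, 3735 of 18467 and 3874 of 18562 genes. With all libraries it was 7 of the 9 regulators and 5023 of the 19011 genes. Without *Rag1*-/- pool 7, *Foxn1* was called lower beside *Prlr*, *Lgr6* and *Sox9*, and the lone pool 2 was then assumed to vary like the WT libraries.

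**Figure D1:**
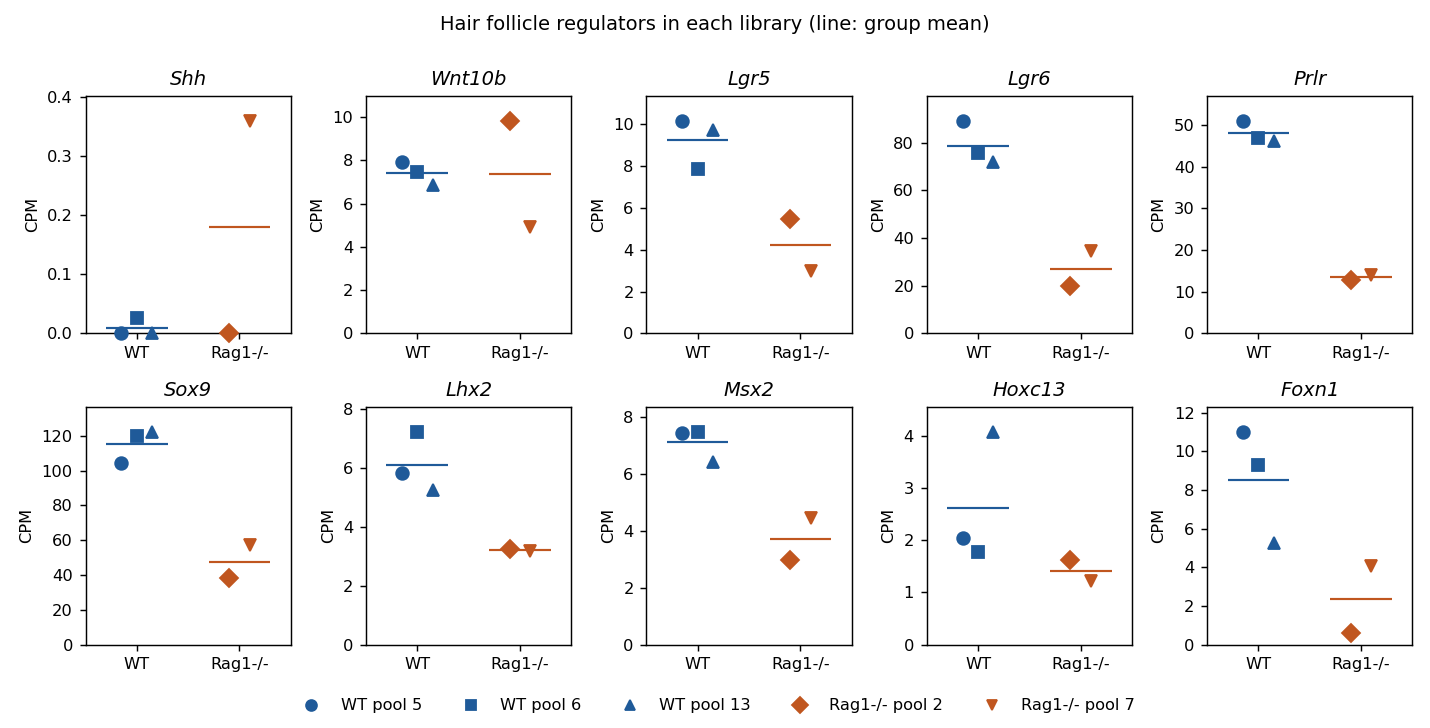
Level of each of the 10 regulators in the 5 libraries, in CPM on linear axes that start at 0, with a line at the mean of each group (3 WT pools, 2 pools labelled Rag1-/-). On this scale the Rag1-/- points lie below all WT points in 8 panels, while Wnt10b overlaps and Shh is near 0 except in pool 7.

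Among the ligands, *Wnt10b* (ENSMUSG00000022996, chr15:98771753-98778150 of GRCm38) encodes a Wnt protein of the follicle placode and of the early growth phase. It had 7.91, 7.45 and 6.86 CPM in WT pools 5, 6 and 13 and 9.81 and 4.93 CPM in *Rag1*-/- pools 2 and 7. Pool 2 was the highest of the 5 libraries and pool 7 the lowest, so that the groups overlapped and the WT libraries lay between the other pair. The means were 7.41 ± 0.527 CPM (SD, n = 3) and 7.37 ± 3.45 CPM (SD, n = 2). Its log2 fold change was -0.01 (SE 0.35, 95% interval -0.82 to 0.81, adjusted p = 0.994, edgeR), and the interval still allows changes of either sign.

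*Shh* (ENSMUSG00000002633, chr5:28456815-28467256) encodes the hedgehog ligand that the growing hair matrix secretes. Its counts were 0, 1 and 0 in WT and 0 and 14 in the libraries labelled *Rag1*-/-, the 14 counts of pool 7 being 0.36 CPM. Pool 7 was thus the only library above 3 counts, which correspond to between 0.076 and 0.0911 CPM in the WT libraries, to 0.0771 CPM in pool 7 and to 0.373 CPM in the shallow pool 2. A level like that of pool 7 would correspond to just under 3 counts at the depth of pool 2. The 0 counts of pool 2 are thus too few to compare the 2 pools closely. Exons of *Shh* share 446 bases with *9530036O11Rik* and 361 bases with *Gm26894* on the opposite strand, and the library kit does not mark strand, so that reads of these genes cannot be told apart there. Without the filter its log2 fold change was 4.11 (SE 1.85, adjusted p = 0.192, edgeR).

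Among the receptors, *Prlr* (ENSMUSG00000005268, chr15:10177238-10349180), the prolactin receptor, differed most. Its levels were 50.9, 46.8 and 46.2 CPM in WT and 12.8 and 14 CPM in the libraries labelled *Rag1*-/-. Both groups were tight, every WT library was more than 3 times as high as either library of the other group, and the shallow pool 2 and the deep pool 7 were nearly level. The log2 fold change was -1.80 (SE 0.20, 95% interval -2.27 to -1.33, adjusted p = 0.0306, edgeR), the 13th smallest p of all 19011 genes. *Prlr* shares 203 exon bases with *Gm21973* on the same strand.

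*Lgr6* (ENSMUSG00000042793, chr1:134983301-135105276), an R-spondin receptor of the upper follicle and epidermis, had 89.1, 75.7 and 71.7 CPM in WT and 19.9 and 34.4 CPM in the libraries labelled *Rag1*-/-. Both of the latter were lower than any WT library, and pool 7 was 1.73 times as high as pool 2. Its log2 fold change was -1.49 (SE 0.29, 95% interval -2.17 to -0.81, adjusted p = 0.0368, edgeR). *Lgr5* (ENSMUSG00000020140, chr10:115450311-115587780), the receptor of the same family that marks cycling stem cells of the lower follicle, had 10.2, 7.85 and 9.72 CPM in WT and 5.46 and 2.98 CPM in the libraries labelled *Rag1*-/-. The groups did not overlap, but here pool 7 was the lowest library, the reverse of *Lgr6*. Its log2 fold change of -1.14 (SE 0.35, 95% interval -1.96 to -0.31) did not pass (adjusted p = 0.0987, edgeR), and *Lgr5* was called lower with DESeq2 (-1.20, adjusted p = 0.0116).

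Among the transcription factors, *Sox9* (ENSMUSG00000000567, chr11:112782224-112787760), needed for the stem cells of the bulge and the outer root sheath, was the most abundant regulator. It had 104, 120 and 122 CPM in WT and 38.3 and 57.2 CPM in the libraries labelled *Rag1*-/-, with no overlap. The log2 fold change was -1.23 (SE 0.25, 95% interval -1.81 to -0.65, adjusted p = 0.0377, edgeR). *Lhx2* (ENSMUSG00000000247, chr2:38339281-38369733), a LIM homeobox factor that maintains bulge stem cells, had 5.8, 7.19 and 5.22 CPM in WT and 3.23 and 3.16 CPM in the libraries labelled *Rag1*-/-. Pools 2 and 7 were level and below each WT pool, and the log2 fold change of -0.89 (SE 0.33, 95% interval -1.67 to -0.12) did not pass (adjusted p = 0.143, edgeR).

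*Msx2* (ENSMUSG00000021469, chr13:53466884-53473074), a homeobox factor of the hair matrix, had 7.45, 7.47 and 6.44 CPM in WT and 2.98 and 4.45 CPM in the libraries labelled *Rag1*-/-. The groups did not overlap, and the log2 fold change was -0.88 (SE 0.33, 95% interval -1.65 to -0.10, adjusted p = 0.151, edgeR). *Hoxc13* (ENSMUSG00000001655, chr15:102921103-102928814) directs keratin genes of the hair shaft and was the lowest tested regulator in CPM. Its levels were 2.04, 1.77 and 4.07 CPM in WT and 1.61 and 1.21 CPM in the libraries labelled *Rag1*-/-. WT pool 13 was about double the other WT pools, which were close to pool 2, and pool 2 held only 13 counts. The log2 fold change was -0.88 (SE 0.52, 95% interval -2.12 to 0.35, adjusted p = 0.337, edgeR), and without WT pool 13 it was -0.43.

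*Foxn1* (ENSMUSG00000002057, chr11:78357577-78386558), the factor mutated in nude mice, which promotes differentiation of hair and epidermal keratinocytes, had the highest ratio of the tested regulators between pool 7 and pool 2. It had 11, 9.3 and 5.25 CPM in WT and 0.621 and 4.08 CPM in the libraries labelled *Rag1*-/-, of which pool 2 held 5 counts. Pool 7 was close to WT pool 13 and was 6.58 times as high as pool 2. Its log2 fold change of -1.68 (SE 0.70, 95% interval -3.33 to -0.04) did not pass (adjusted p = 0.18, edgeR), while DESeq2 called it lower (-1.76, adjusted p = 0.0422). Without pool 7 the value was -3.83 and without pool 2 it was -0.99, so that 1 library decided its size. The 5 libraries had the same order for *Foxn1* as for *Krt10*, a keratin of differentiated epidermis named after its values were seen, with 11280, 7310 and 5266 CPM in WT and 474 and 4140 CPM in the libraries labelled *Rag1*-/-. *Lgr6* and the basal keratins *Krt5* and *Krt14* had this order too, so that it was not particular to genes of differentiation.

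Promoters are shown for 3 regulators: *Prlr* and *Lgr6*, which were called, and *Wnt10b*, whose level did not separate the groups. RefSeq on GRCm38.p6 gave a window of 300 bases (250 before to 50 after the start) for 6 of the 10 genes. In the sequences, printed in the direction of the gene, the capitals mark CpG dinucleotides. The windows are chr15:10176988-10177287 (plus strand, at the first of the gene's start sites), chr1:135105227-135105526 (minus strand) and chr15:98778101-98778400 (minus strand).
Prlr: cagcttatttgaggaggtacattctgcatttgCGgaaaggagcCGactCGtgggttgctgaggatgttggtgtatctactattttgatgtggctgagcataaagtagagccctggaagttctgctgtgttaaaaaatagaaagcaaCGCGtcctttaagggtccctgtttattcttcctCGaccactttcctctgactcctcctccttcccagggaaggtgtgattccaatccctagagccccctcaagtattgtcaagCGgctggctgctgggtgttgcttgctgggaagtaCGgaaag
Lgr6: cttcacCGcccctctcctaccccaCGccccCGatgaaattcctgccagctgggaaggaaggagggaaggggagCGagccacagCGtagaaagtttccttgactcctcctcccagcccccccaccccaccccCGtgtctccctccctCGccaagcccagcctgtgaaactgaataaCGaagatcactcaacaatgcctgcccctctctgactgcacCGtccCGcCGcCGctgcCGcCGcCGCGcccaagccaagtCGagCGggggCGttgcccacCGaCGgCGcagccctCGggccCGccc
Wnt10b: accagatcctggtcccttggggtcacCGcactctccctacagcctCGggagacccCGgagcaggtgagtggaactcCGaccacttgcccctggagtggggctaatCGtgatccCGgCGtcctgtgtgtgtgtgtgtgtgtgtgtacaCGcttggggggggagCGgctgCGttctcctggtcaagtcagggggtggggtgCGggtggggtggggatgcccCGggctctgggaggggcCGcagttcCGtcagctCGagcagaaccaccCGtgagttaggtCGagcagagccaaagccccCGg
The windows of *Lgr6* and *Wnt10b* were rich in CpG, with 24 and 18 against a median of 7 over 32851 promoter windows, whereas *Prlr* had 8. Their G+C contents were 67.7%, 66.3% and 49.3% against a median of 52.7%, and those of *Lhx2*, *Foxn1* and *Msx2* were 74.7%, 62.7% and 61%. Both strands were searched for a TCF/LEF motif (CTTTG followed by AA, AT, TA or TT, in 16.9% of all windows), a STAT motif (TTCNNNGAA, 8.3%), a GLI motif (TGGGTGGTC, 0.253%) and the GC box (GGGCGG, 35.7%). Of these only the GC box occurred, 4 times in *Lhx2*, 2 times in *Lgr6* and 1 time each in *Msx2* and *Foxn1*. The letters of the other motifs were absent from these 6 windows.

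Levels were compared between genes per kilobase of exon (exon union of GENCODE M21). In WT, *Sox9* was highest with 27.9 ± 2.33 CPM per kb (SD, n = 3), followed by *Lgr6* with 11.5 ± 1.33, *Prlr* with 3.13 ± 0.168 and *Foxn1* with 2.65 ± 0.916 CPM per kb. *Wnt10b* (2.18 ± 0.155) and *Msx2* (2.17 ± 0.181 CPM per kb) were level, and *Foxn1* did not differ from either or from *Prlr* beyond its spread. *Lhx2* had 1.38 ± 0.231, *Hoxc13* 1.07 ± 0.51 and *Lgr5* 0.9 ± 0.119 CPM per kb, of which *Hoxc13* overlapped both neighbours. *Shh* was last with 0.00297 CPM per kb. In the means of the libraries labelled *Rag1*-/- (SD, n = 2), *Sox9* (11.5 ± 3.25 CPM per kb) and *Lgr6* (3.96 ± 1.49) remained first. *Wnt10b* (2.17 ± 1.01) stood above *Msx2* (1.13 ± 0.316) and *Prlr* (0.874 ± 0.0572 CPM per kb). The 2 pools disagreed on *Wnt10b*, which was level with *Lgr6* in pool 2 (2.89 and 2.9) and close to *Msx2* in pool 7 (1.45 and 1.36 CPM per kb). The place of *Prlr* depends on the length used, since with the deposited transcript length it had 15 CPM per kb in WT and ranked above *Lgr6* (11.8).

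The libraries differ in keratinocyte RNA, and so each regulator was set against the keratinocyte genes of its own library. The median log2 CPM of the 26 keratinocyte genes was 10, 9.51 and 9.21 in WT and 6.7 and 8.91 in the libraries labelled *Rag1*-/-. All 26 genes had a negative log2 fold change with TMM scaling, with a median of -1.56, and 9 were called lower. *Krt5*, a keratin of basal epidermis and of the outer root sheath, had 6091, 5067 and 5019 CPM in WT and 1632 and 2731 CPM in the libraries labelled *Rag1*-/-. *Krt14*, its partner, had 6118, 5304 and 5108 CPM and 1792 and 3049 CPM. The CPM ratio of pool 7 to pool 2 ran from 0.887 (*Klf5*) to 71.6 (*Lor*) over the 26 keratinocyte genes. The ratios of *Lhx2* (0.978), *Prlr* (1.1), *Msx2* (1.49), *Sox9* (1.5), *Lgr6* (1.73) and *Foxn1* (6.58) lay within this range, and those of *Hoxc13* (0.748), *Lgr5* (0.545) and *Wnt10b* (0.503) lay below it. *Lhx2* lay within it only through *Klf5*, and a place within so wide a range says little about likeness to the keratinocyte genes.

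Relative to the keratinocyte median, *Lgr6* lay at -3.52, -3.26 and -3.04 log2 units in WT and at -2.38 and -3.81 in the libraries labelled *Rag1*-/-, so that the latter lay on both sides of WT. *Prlr* lay at -4.33, -3.96 and -3.68 in WT and at -3.02 and -5.1, again on both sides, with a difference between group means of -0.07 (0.05 against the mean of the list). *Sox9* lay at -3.29, -2.6 and -2.28 and at -1.44 and -3.07, so that pool 7 fell within the WT range. For *Wnt10b* the values were -7.01, -6.61 and -6.43 in WT, and -3.4 in pool 2 against -6.6 in pool 7. In 8 of the 9 regulators pool 2 was the highest library on this scale. *Foxn1* was the exception, with -6.54, -6.29 and -6.81 in WT and with -7.25 and -6.88 in the libraries labelled *Rag1*-/-, both of those being below WT. Against the mean of the list in place of its median, the *Foxn1* groups overlapped (-6.2, -6.1 and -6.63 in WT, -7.23 and -6.17). Against the mean, both libraries labelled *Rag1*-/- lay above WT in *Wnt10b* and *Msx2*.

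**Figure D2:**
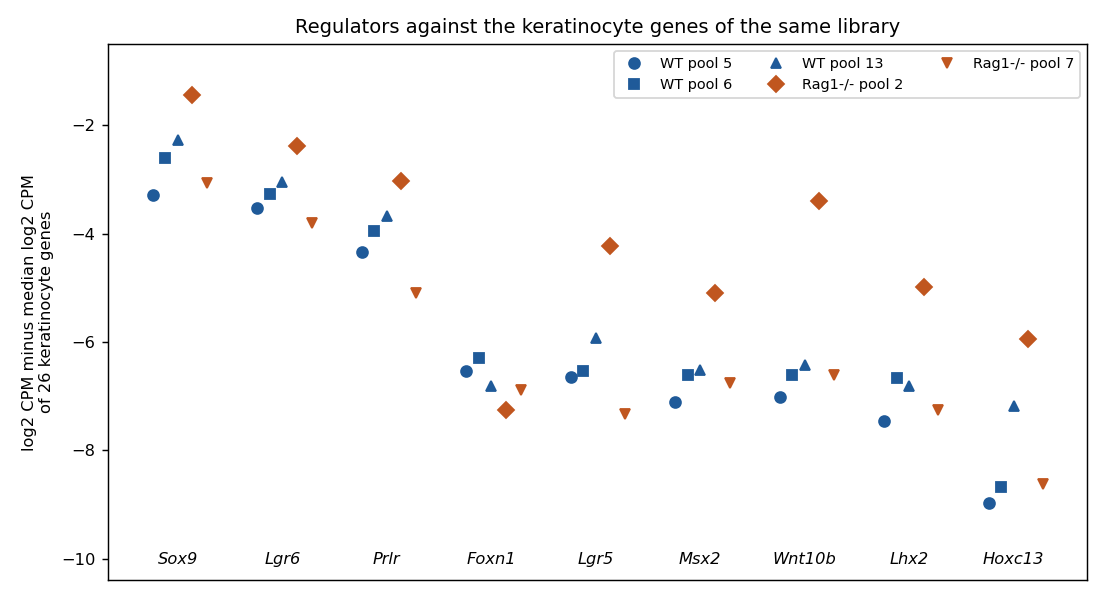
Log2 CPM of each of the 9 tested regulators minus the median log2 CPM of 26 interfollicular keratinocyte genes in the same library (vertical axis, log2 units), for the 5 libraries. Rag1-/- pool 2 is the highest point for every gene but Foxn1, where it is the lowest, and pool 7 lies within or below the WT points.

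Scaled on the keratinocyte genes, the median log2 fold change of all genes moved to 1.69 and that of the regulators to 0.66. Under this scaling *Wnt10b* was called higher (1.87, adjusted p = 0.0105, edgeR), with 58.1% of all genes called and 0.363% called lower. *Prlr* (-0.15) and *Foxn1* (-0.47) stayed negative, while *Lgr6* (0.04), *Sox9* (0.31), *Msx2* (0.66), *Lgr5* (0.70), *Hoxc13* (0.74) and *Lhx2* (0.76) turned positive, and none of these 8 passed. Scaled instead on the leukocyte genes, the median of all genes moved to -2.11 and that of the regulators to -3.32, and all 9 were called lower. A scaling shifts all genes about alike, so that the distance of the regulators to the median of all genes is nearly the same under each scaling and adds no further evidence. The part of keratinocyte RNA in the values obtained with TMM was not tested beyond these scalings.

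**Figure D3:**
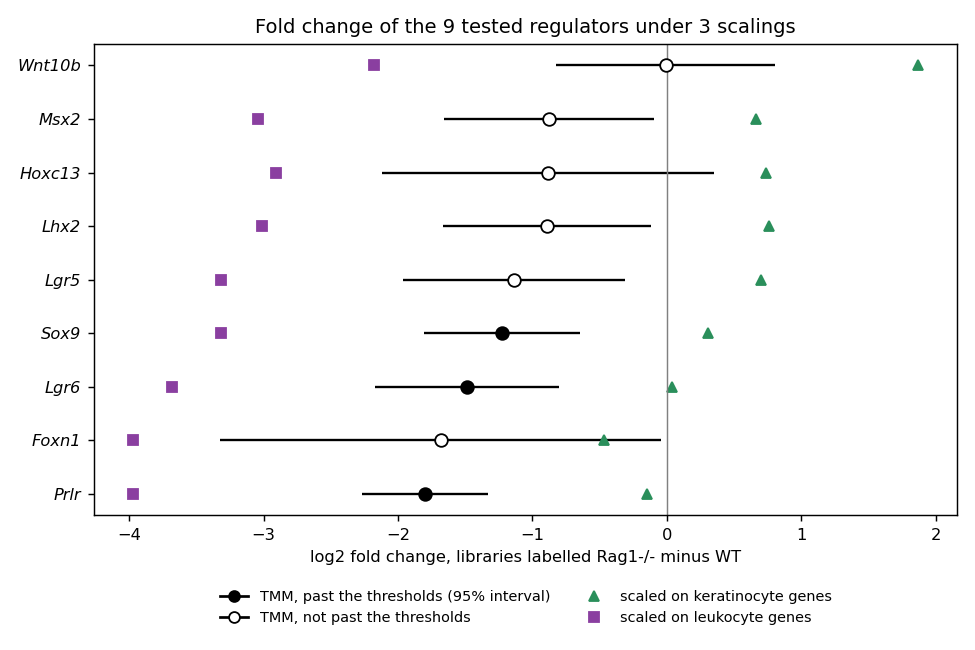
Log2 fold change (horizontal axis, libraries labelled Rag1-/- minus WT) of the 9 tested regulators with TMM scaling (circles, filled where called, bars for the 95% interval), with keratinocyte scaling (triangles) and with leukocyte scaling (squares). With TMM scaling Prlr, Lgr6 and Sox9 are called lower, and with keratinocyte scaling 7 of the 9 values turn positive.

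The profile of each of the 9 tested regulators over the 5 libraries was also set against the median profile of each list, by the root mean square difference of centred log2 CPM, as a description. *Msx2* was nearest to a list of follicle lineage factors (0.07), *Lhx2* to the same list (0.21), *Sox9* to follicle stem cell genes (0.25), *Lgr6* to interfollicular keratinocyte genes (0.12) and *Prlr* to the same genes (0.34). *Wnt10b* was nearest to the hedgehog pathway (0.24), *Lgr5* to melanocyte genes (0.38) and to the Wnt pathway (0.39), and *Hoxc13* to melanocyte genes (0.35). *Foxn1* was far from each list (0.6 at the nearest, the interfollicular keratinocyte genes). Several second lists were almost as near: follicle lineage factors for *Sox9* (0.26), the Wnt pathway for *Lhx2* (0.24) and proliferation genes for *Wnt10b* (0.28). Over these 9 the distance to the leukocyte genes was between 1.22 (*Wnt10b*) and 2.43 (*Foxn1*). The 5 points of a profile share their depth and scaling with the lists.

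Genes around these regulators were taken from 9 lists of 160 genes, of which 137 were tested. With TMM scaling 19 were called (13.9%, against 5.74% of all genes), 15 lower (10.9%) and 4 higher, with a median log2 fold change of -0.55. Scaled on the keratinocyte genes, 55 were called and 1 of them was lower, where 58.1% of all genes were called and 0.363% were called lower. Among the 14 genes of the hedgehog pathway, with a median of -0.25, 1 was called. *Gli3*, mainly a repressor of hedgehog targets, had 22.4, 20.3 and 22.5 CPM in WT and 8.45 and 10.3 CPM in the libraries labelled *Rag1*-/- (-1.16, SE 0.23, adjusted p = 0.0371, edgeR). The transducer *Smo* (-0.98, adjusted p = 0.0549) and the ligand-binding *Hhip* (1.40, adjusted p = 0.0747, edgeR for both) did not pass. *Gli1*, a target of the pathway, had a log2 fold change of 0.03.

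In the Wnt and R-spondin pathway 32 of 35 genes were tested, with a median of -0.54, and with TMM scaling 4 were called lower and 1 higher. *Lgr4*, the third R-spondin receptor beside *Lgr5* and *Lgr6*, had 64.4, 52.3 and 62.3 CPM in WT and 18 and 25.8 CPM in the libraries labelled *Rag1*-/- (-1.40, SE 0.24, adjusted p = 0.0309, edgeR). These 3 receptors were lower in CPM in both libraries labelled *Rag1*-/- than in each WT library, as were 24% of all genes. *Lgr4* was named for its small p within this list. With keratinocyte scaling *Lgr4* (0.17), *Lgr5* and *Lgr6* had positive values that did not pass. *Lrp4*, a co-receptor that binds Wnt inhibitors, had 277, 230 and 166 CPM in WT and 51.2 and 69.9 CPM (-1.85, adjusted p = 0.0306, edgeR). The ligands *Wnt10a* (-1.31, adjusted p = 0.0377) and *Wnt3* (-1.46, adjusted p = 0.0479, edgeR for both) were called lower with TMM scaling and had positive values with keratinocyte scaling (0.34 and 0.15). *Tcf7*, a Wnt effector also expressed by T cells and innate lymphoid cells, was called higher, with 47, 101 and 76.4 CPM in WT and 373 and 287 CPM in the libraries labelled *Rag1*-/- (2.17, adjusted p = 0.0306, edgeR).

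Among 9 tested genes of prolactin receptor signalling, which also serve other cytokine receptors, 3 were called higher and 1 lower, with a median of 0.85. Of all genes 3.58% were called higher and 2.16% lower. *Prl*, the hormone, had 0 counts in all 5 libraries. The inhibitors *Socs1* (20.5, 30.5 and 23.2 CPM in WT, 77.3 and 84.2 CPM in the libraries labelled *Rag1*-/-), *Cish* and *Socs2* were called higher, with log2 fold changes of 1.74, 1.25 and 1.13 (adjusted p = 0.0306, 0.036 and 0.0368, edgeR). *Ghr*, the growth hormone receptor, was called lower with TMM scaling (-1.005, adjusted p = 0.0488, edgeR), and its value with keratinocyte scaling was 0.72. With TMM and keratinocyte scaling *Prlr* had a negative value and *Socs1*, *Cish* and *Socs2* were called higher, while with leukocyte scaling the latter were also negative (-0.32, -0.82 and -0.93). *Elf5* (-1.33, adjusted p = 0.159) and *Socs3* (-0.45, adjusted p = 0.382, edgeR for both) had negative values with TMM scaling and did not pass. *Socs1*, *Socs2* and *Cish* are induced by cytokine receptors in lymphocytes too. Each of the 34 tested leukocyte genes was positive with TMM scaling, with a median of 1.99. Of these 25 were called higher, where 3.58% of all genes were called higher. The part of leukocyte RNA in these values was not tested.

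Of 18 follicle stem cell genes, with a median of -1.0, 4 were called lower with TMM scaling, and with keratinocyte scaling the median was 0.53. They were *Itga6* (-1.60), an integrin chain of basal keratinocytes, *Cdh3* (-1.38), the P-cadherin of the hair bulb, and *Nfib* (-1.24), each with adjusted p = 0.0306 (edgeR), and *Foxc1* (-1.10, adjusted p = 0.0453, edgeR). Of 16 tested follicle lineage factors, with a median of -0.67 with TMM and 0.83 with keratinocyte scaling, those called lower with TMM were *Vdr* (-1.36, adjusted p = 0.0309), the vitamin D receptor needed for hair cycling, *Foxq1* (-1.24, adjusted p = 0.0379) and *Prdm1* (-1.23, adjusted p = 0.0481, edgeR for each). In the ectodysplasin pathway of 6 genes (median -0.47), the receptor *Tnfrsf19* was called lower with TMM scaling (-1.38, adjusted p = 0.0306, edgeR), and the receptor *Eda2r* (-1.22, adjusted p = 0.116) and the ligand *Eda* (-0.72, adjusted p = 0.167) did not pass. Of 16 BMP pathway genes (median -0.68) none was called by edgeR with TMM scaling, and DESeq2 called 1 lower and 1 higher. An unadjusted p under 0.05 (edgeR) was seen in 8 of the 16 and in 5023 of all 19011 genes. With keratinocyte scaling 6 were called higher, where 58.1% of all genes were called. *Bmpr1a* (-0.96, adjusted p = 0.0367) and *Bmpr2* (-0.85, adjusted p = 0.0483, edgeR for both), its receptors, passed the adjusted p but not the fold limit. *Id2*, a BMP target that innate lymphoid cells also express, had 131, 347 and 311 CPM in WT and 775 and 1013 CPM in the libraries labelled *Rag1*-/- and was not called (1.80, adjusted p = 0.0503, edgeR).

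The 14 dermal papilla genes mark the mesenchyme that instructs the follicle. With TMM scaling their median log2 fold change was 0.06, against 0.02 over all genes, and none was called by edgeR or had an unadjusted p under 0.05, nor did DESeq2 call any. With keratinocyte scaling the median was 1.73 and 8 were called higher. Under that scaling the median of all genes was 1.69 and 58.1% of all genes were called, so that these values were near those of all genes. The smallest p belonged to *Sox18* (-0.76, adjusted p = 0.3), *Crabp1* (0.62, adjusted p = 0.41) and *Prom1* (-0.89, adjusted p = 0.536, edgeR for each). The 12 fibroblast genes had a median of -0.06, with summed levels of 7640 to 13700 CPM in WT and 8620 and 8170 CPM in the libraries labelled *Rag1*-/-.

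**Figure D4:**
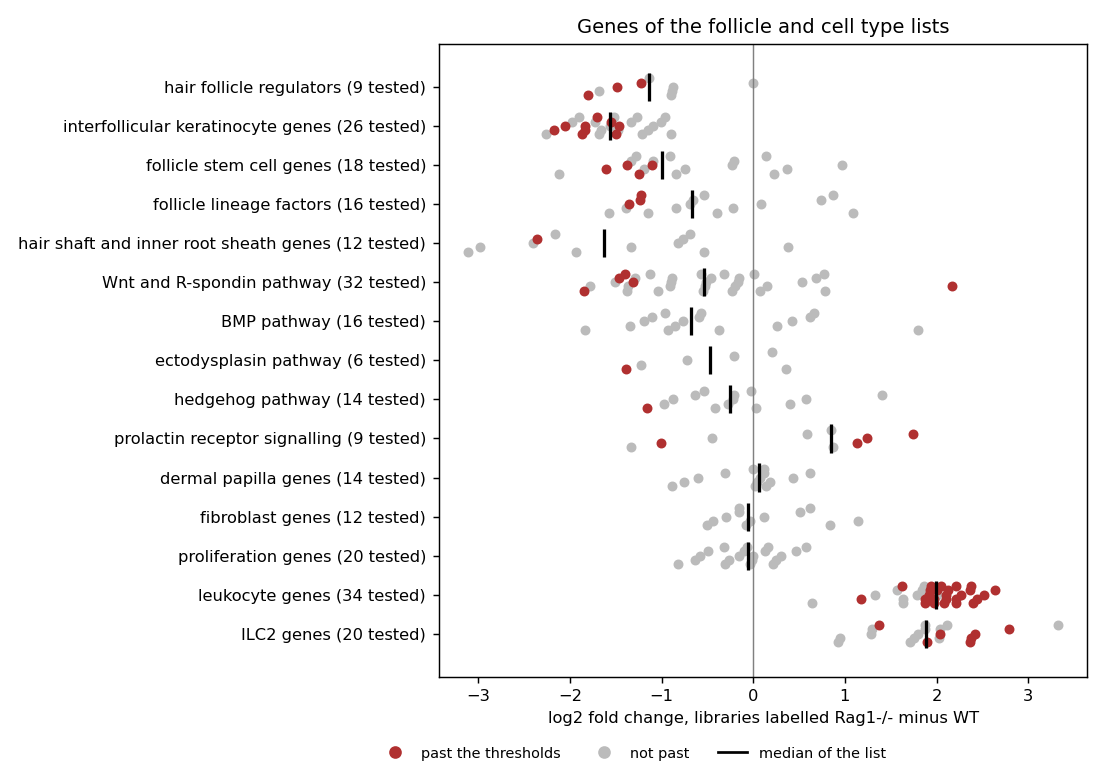
Log2 fold change with TMM scaling (horizontal axis, libraries labelled Rag1-/- minus WT) of each tested gene in the regulators, the follicle lists and 5 other lists, with a bar at each list's median and red points where a gene was called. The regulators have a median of -1.14 and the keratinocyte genes -1.56, while the leukocyte genes have 1.99 and the dermal papilla genes 0.06.

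Hair shaft and inner root sheath genes, which the growing follicle makes, were sparse. Of 29 genes 28 were in the table and 12 were tested, and the 16 others reached at most 59 counts in a library (*Krt35*). The tested genes had a median of -1.63 with TMM scaling, and -0.33 with keratinocyte scaling, and 1 was called lower with TMM. It was *Dsc2*, a desmosome cadherin also found outside the follicle, with 8.22, 20.2 and 18.5 CPM in WT and 2.36 and 3.44 CPM in the libraries labelled *Rag1*-/- (-2.36, adjusted p = 0.0383, edgeR). *Tchh*, trichohyalin of the inner root sheath, had 13.3, 13.9 and 39.4 CPM in WT and 4.6 and 5.01 CPM (-2.16, adjusted p = 0.0621, edgeR). *Tgm3*, a transglutaminase of hair and epidermis, had 61.9, 59.7 and 65.5 CPM in WT and 11.4 and 35.6 CPM (-1.33, adjusted p = 0.117, edgeR).

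WT pool 13, the library with the highest *Hoxc13*, stood apart in some of these genes, which are named here after their values were seen. Other genes of the list did not share this. *Krt73* (2.01 CPM in WT pool 5, 1.21 CPM in pool 13) and *S100a3* (3.2 and 2.06 CPM) were highest in WT pool 5. *Dsc2* was highest in WT pool 6, and *Tgm3* was about level over the WT pools. The inner root sheath keratin *Krt71* had 0.309, 0.101 and 54.6 CPM in WT pools 5, 6 and 13 and 0.621 and 3.01 CPM in *Rag1*-/- pools 2 and 7. *Krt25* had 1.34, 1.5 and 29.7 CPM and 0.497 and 3.03 CPM, and *Krt27* had 0.567, 0.152 and 9.02 CPM and 0.248 and 0.463 CPM. *Krt75*, of the companion layer, had 0.515, 2.58 and 19.6 CPM and 0.124 and 6.06 CPM. Pool 7, the only library with more than 3 *Shh* counts, was instead the highest in the hair cortex keratin *Krt35* (0, 0.177 and 0 CPM in WT, 0 and 1.52 CPM) and in *Rspo4* (2.27, 0.329 and 4.52 CPM in WT, 0.248 and 7.04 CPM). These differences lay between single pools within both groups. The hair cycle stage of the skin of each pool is not given in the sources used here, and its part in these values was not tested.

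**Figure D5:**
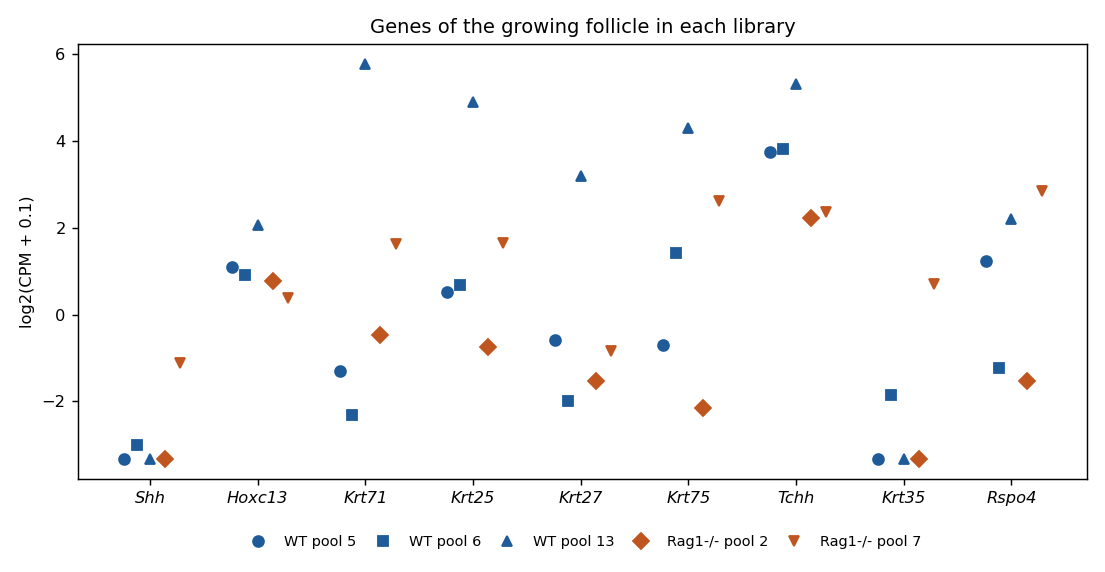
Level of Shh, Hoxc13 and 7 genes of the growing follicle in each of the 5 libraries, as log2(CPM + 0.1). WT pool 13 is the highest in Hoxc13, Krt71, Krt25, Krt27, Krt75 and Tchh, and Rag1-/- pool 7 in Shh, Krt35 and Rspo4.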

How the data were processed

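RNA of sorted dILC2s was sequenced from unstranded TruSeq libraries. The authors aligned reads to GRCm38 with STAR 2.5, counted them per gene with featureCounts 1.5.0-p1 and deposited counts without normalization, together with a normalized signal per gene. Sources name different annotation releases, and the deposited processing description lists a further genome build beside GRCm38. All main results start from the counts. No library was left out, and 0 columns belonged to other samples.

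Genotypes were taken from the labels. Genes were filtered with filterByExpr, scaled by TMM and tested by the quasi-likelihood test of edgeR 4.0.16 (R 4.3.3, 19011 genes, Benjamini-Hochberg), at the study's thresholds. CPM were computed from library totals, with 3 counts as the smallest level the depth shows (counting error only). Differences from keratinocyte genes used log2 CPM with a prior count of 0.5. An exact permutation test of 3 against 2 libraries has 10 splits and cannot go below p = 0.1. Figures were drawn with matplotlib 3.10.9. The test was checked on simulated counts in which genes varied independently, so that the check does not cover shifts shared by many genes. Pools are described as independent replicates. Alternatives were DESeq2 1.42.0, limma 3.58.1 on log2(signal + 1), other scalings and filters, a robust fit, thinning and each library left out.

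Regulators and 20 lists were chosen with earlier results of these data known. Named were the regulators, *Rag1*, up to 3 genes with the smallest p per follicle list and the first 2 of other lists. Chosen after their values were seen were *Gli1*, *Wnt3*, *Wnt10a*, *Foxc1*, *Ghr*, *Prl*, *Elf5*, *Socs3*, *Krt10*, *Klf5*, *Lor*, *Krt73*, *S100a3* and the genes shown with *Shh* and *Hoxc13*. Repeated symbols were read from the row with the most counts.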

Additional observations from a re-analysis of the deposited data

How the results depend on the processing

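No paired analysis was possible because the WT and *Rag1*-/- pools share no replicate numbers. The main limits are 2 libraries in a group, of which pool 2 is shallow, and the dependence of directions on the scaling. Of 19011 genes 1091 were called (62.3% of them higher), with 3 regulators and 19 genes of the follicle lists among them. With DESeq2 the counts were 2453 (48.8% higher), 5 and 38. Without a filter they were 2645 (43.7% higher), 5 and 41. With at least 10 counts in every library, 31 genes of the follicle lists were called. Scaling on the leukocyte genes gave 12287 (0.13% higher), 9 and 111, and scaling on the keratinocyte genes 11054 (99.4% higher), 1 and 55. The keratinocyte scaling reversed *Sox9* (0.31), *Lhx2* (0.76), *Lgr5* (0.70), *Lgr6* (0.04), *Wnt10b* (1.87), *Msx2* (0.66) and *Hoxc13* (0.74), which follows from the shift of all genes by that scaling. RLE scaling, library size alone, limma, the adjusted p alone, the robust fit, thinning and the minimum of 10 counts left *Prlr*, *Lgr6* and *Sox9* as the 3 regulators called.

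Leaving out single libraries gave 0 to 2409 calls over all genes, 0 to 4 regulators and 0 to 45 genes of the follicle lists. No gene was called by edgeR without WT pool 5, 6 or 13 or without *Rag1*-/- pool 2, where 3521, 3735, 3874 and 5200 genes had an unadjusted p under 0.05, among them 4, 4, 6 and 5 regulators. Without *Rag1*-/- pool 7 there were 2409 calls, 33.8% of them higher. The log2 fold changes then ranged from -1.97 to -1.70 for *Prlr*, -2.05 to -1.13 for *Lgr6*, -1.65 to -0.94 for *Sox9*, -1.56 to -0.82 for *Lgr5*, -1.0 to -0.75 for *Lhx2*, -1.32 to -0.61 for *Msx2*, -3.83 to -0.99 for *Foxn1*, -1.09 to -0.43 for *Hoxc13* and -0.52 to 0.34 for *Wnt10b*, which was positive without WT pool 5 (0.04), WT pool 6 (0.01) or *Rag1*-/- pool 7 (0.34). The cause was not tested. With the deposited transcript lengths, a choice made after seeing the data, the WT level was 15 CPM per kb for *Prlr*, 3.58 for *Lhx2*, 3.33 for *Wnt10b*, 2.9 for *Msx2* and 1.96 for *Lgr5*.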

Other observations

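The sebaceous gland opens into the follicle. With TMM scaling 10 of its 12 genes had a negative log2 fold change, with a median of -1.69, while edgeR called none and DESeq2 called 3 lower. An unadjusted p under 0.05 (edgeR) was seen in 7 of the 12 and in 5023 of all 19011 genes. With keratinocyte scaling 2 were called lower and 2 higher, where 58.1% of all genes were called and 0.363% were called lower. *Scd1*, a desaturase of sebaceous lipids, had 2836, 3951 and 5729 CPM in WT and 398 and 1612 CPM in the libraries labelled *Rag1*-/-. *Scd3* had 1.78, 26.3 and 27.5 CPM in WT and 0.248 and 3.49 CPM, so that WT pool 5 lay below pool 7. The 9 melanocyte genes had a median of -0.48, and the 20 proliferation genes a median of -0.06. With TMM scaling neither list held a call by edgeR, 0 and 1 of their genes had an unadjusted p under 0.05, and DESeq2 called none, whereas keratinocyte scaling called 2 melanocyte and 17 proliferation genes higher. Endothelial (-0.50), myeloid (-0.04) and mast cell genes (-0.36) held no call by edgeR with TMM scaling, with 1, 0 and 2 genes at an unadjusted p under 0.05 and 1, 0 and 2 calls by DESeq2, and with keratinocyte scaling 0, 6 and 2 were called higher. With TMM scaling, 4 of 11 T cell genes were called higher with a median of 1.03, and 7 of 20 ILC2 genes with a median of 1.89. Of all genes 3.58% were called higher. Among the T cell genes 1 had a negative value (-1.48). DESeq2 called 5 T cell genes higher and 1 lower, and 17 ILC2 genes higher, where it called 14.9% of all genes. With keratinocyte scaling 10 T cell and 20 ILC2 genes were called higher. With leukocyte scaling the medians were -1.21 and 0.03, against -2.11 over all genes.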
